A study of Mus musculus with 12 samples.

Results

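Kinesins are motor proteins that walk along microtubules or take them apart with the energy of ATP. Some build and move the spindle in dividing cells, hold chromosomes to it and help to cut the cell apart at the end of division. Others carry vesicles, organelles and ciliary cargo at any time of the cell cycle, most often toward microtubule plus ends and often with adaptor proteins that link motor and cargo. The genes described here are all those whose symbol is Kif followed by a digit, 37 of the 17097 genes measured. By known role, 12 were grouped as mitotic, 15 as transport and 10 as other. The last group holds ciliary and less studied members and Kif2a, which takes microtubules apart both at spindle poles and in neurons.

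The cells were CT26 mouse colon carcinoma cells, profiled on 12 expression arrays, 3 in each of 4 groups. STS+OXP cells were starved and given oxaliplatin (OXP), a platinum drug that cross-links DNA. OXP cells received the drug in control medium, STS cells were starved without drug, and CTR cells had control medium alone. Starvation (STS, short-term starvation) lasted 48 h and meant 0.5 g/L glucose and 1% serum, against 1 g/L and 10% in control medium, and the labels put OXP at 10 µM, added 24 h after STS began, while the study's text names other concentrations too. All groups are 1 cell line. It is not given in the sources used here whether replicate arrays stand for separate cultures, so p-values measure only the spread between these arrays, which may be technical.

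Values are log2 signals, so a difference of 1 is a doubling, and signals of different genes are not compared because each probe set binds with its own strength. Background was the highest of 22 control probe sets on each array and lay between 3.21 and 3.72. Calls rest on limma, with p-values adjusted by Benjamini and Hochberg's method over all 17097 genes and a threshold of 0.05, and fold changes are given ± their standard error. Of the labelled cell type's markers, the epithelial Epcam and the intestinal Cdx2 were above background on all 12 arrays and the epithelial Krt8 on 8, but Krt18, Krt19 and Cdh1 of epithelium and Cdx1 and Vil1 of the intestine were at background on all of them. Markers of other cell types were mixed. The endothelial Pecam1, Cdh5 and Tek and the leukocyte Ptprc and Itgam were at background on all arrays, while the endothelial Kdr and the macrophage marker Adgre1 were above it on 11 arrays and Cd14, Cd3e and Cd8a of leukocytes on 12. Cd79a was above it on 9, Cd4 on 8, Csf1r on 7 and Cd68 on 2. Of 5 fibroblast markers 4 were above background on all 12 arrays (Col1a1, Col1a2, Pdgfra and Pdgfrb, not Thy1), against 1 of 5 epithelial markers. The neuronal Syp was above it on 12 and Tubb3 on 7, but Map2 and Snap25 on 0. Array OXP 1 stood apart, with a Gapdh signal 3.85 higher at the 3′ than at the 5′ end, against −0.117 to 0.284 on the other arrays, a gap used as a sign of degraded RNA. Array OXP 2 was closer to the STS+OXP arrays (root mean square distance 0.173) than to OXP 1 (0.345) or OXP 3 (0.251). Where a kinesin call in OXP cells was lost without these arrays, the value without them is given beside it, and the counts of partner and marker genes were not refitted without them.

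Of the 37 kinesins, 23 were above background on all arrays of at least 1 group, namely 9 mitotic, 12 transport and 2 other members. Another 9 were never above it in the probe set selected for the gene, the one with the highest mean. These were the mitotic Kif14 and Kif2b, the transport kinesin Kif1c, and Kif6, Kif9, Kif26a, Kif26b, Kif27 and Kif28, with means from 2.42 for Kif2b to 3.31 for Kif1c, whose other probe set exceeded background on 2 arrays. Kif23, Kif1a, Kif5c, Kif12 and Kif24 exceeded background on a few arrays each, and none of these 14 dim genes was called in any comparison. In bulk RNA, fewer cells that express a gene and less RNA in each cell cannot be told apart.

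The mitotic kinesins fell with OXP, in starved and in control medium. In STS+OXP cells 8 of the 12 were lower than in CTR and 0 higher. Their median log2 fold change was −1.70, beside 0.00 over all genes. The background share of lower genes was 14.2% and that of higher genes 16.4%. In OXP cells 8 of the 12 were lower than in CTR, again with a median of −1.70, where 13.9% of all genes were lower and 17.5% higher. Without OXP the picture was different. In STS cells 0 of the 12 were called against CTR by limma, 0 had an unadjusted p under 0.05, and the median was −0.06, while 6.74% of all genes were lower and 9.75% higher. The unpaired test that the study's methods name put 2 of the 12 lower in STS at unadjusted p under 0.05 and 0 after Benjamini-Hochberg adjustment. At that unadjusted threshold it called 4090 of all genes, 49.7% of them lower.

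Kif11, the motor that pushes the spindle poles apart, had signals of 4.06, 4.04 and 3.97 on the STS+OXP arrays, 4.04, 4.11 and 3.63 on OXP, 6.50, 6.43 and 6.44 on STS and 6.60, 6.63 and 6.53 on CTR. It was 5.90-fold lower in STS+OXP than in CTR (log2 fold change −2.56 ± 0.105, adjusted p = 8.41e-10) and 6.31-fold lower in OXP (−2.66 ± 0.105, adjusted p = 6.64e-10). Every array with OXP lay more than 2 log2 units below every array without it, and the value of OXP 3 was at background, so the fall may be understated there. A second, dimmer Kif11 probe set showed smaller differences of −0.78 and −0.85 from CTR, and the average of both sets gave −1.67 and −1.75. Kif15, which can stand in for Kif11 at the spindle, gave no such split. Its signals were 4.29, 4.44 and 4.42 in STS+OXP, 4.37, 4.33 and 4.14 in OXP, 4.34, 4.05 and 4.31 in STS and 4.44, 4.32 and 4.45 in CTR, so that the groups overlapped. The Kif15 difference was −0.02 ± 0.0928 in STS+OXP (95% confidence interval −0.22 to 0.18) and −0.12 ± 0.0928 in OXP (−0.32 to 0.08), both against CTR and on a signal not far above background.

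The chromokinesins Kif4 and Kif22 bind chromosome arms, Kif4 also working with Prc1 in the central spindle and Kif22 pushing the arms away from the poles. Kif4 signals were 4.92, 4.87 and 5.13 in STS+OXP, 5.15, 5.33 and 4.96 in OXP, 6.78, 6.73 and 6.75 in STS and 6.90, 6.94 and 6.88 in CTR. Kif22 signals were 4.55, 4.71 and 4.44 in STS+OXP, 3.93, 4.64 and 4.47 in OXP, 6.83, 6.81 and 6.88 in STS and 6.37, 6.75 and 6.51 in CTR. For both genes all arrays with OXP were below all arrays without it. Kif4 fell by 1.93 ± 0.0948 in STS+OXP against CTR (adjusted p = 3.85e-09) and by 1.76 ± 0.0948 in OXP (adjusted p = 8.85e-09). Kif22 fell by 1.98 ± 0.152 (adjusted p = 2.62e-07) and by 2.20 ± 0.152 (adjusted p = 9.57e-08), and its second probe set differed by −1.60 and −1.88. In STS the 3 Kif22 arrays lay above the 3 CTR arrays, by 0.30 ± 0.152, which did not pass the test (adjusted p = 0.237). That difference was called at adjusted p = 0.0345 with array weights, at 0.0451 with only the STS and CTR arrays and at 0.0411 with OXP arrays 1 and 2, or 1 and 3, left out together.

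Kif18a and Kif18b act at microtubule plus ends, Kif18a damping the swing of chromosomes at the metaphase plate and Kif18b keeping astral microtubules short. Kif18a signals were 3.54, 3.36 and 3.47 in STS+OXP, 3.76, 3.66 and 3.28 in OXP, 5.47, 5.49 and 5.46 in STS and 5.46, 6.0 and 5.63 in CTR. Among the arrays with OXP, Kif18a was above background on 1 of 3 in STS+OXP and 2 of 3 in OXP, and its fold change of −2.24 ± 0.137 in STS+OXP (adjusted p = 2.93e-08) and −2.13 ± 0.137 in OXP (adjusted p = 4.79e-08) against CTR may be understated for that reason. Its other probe set was at background on all 12 arrays and differed by 0.02 in both comparisons. With the average of both sets the fold change was −1.11 and −1.05, both still called. Kif18b moved less. Its signals were 5.04, 5.31 and 5.33 in STS+OXP, 5.54, 5.06 and 5.07 in OXP, 6.04, 5.81 and 5.83 in STS and 6.19, 5.96 and 6.13 in CTR, and it fell by 0.86 ± 0.128 in STS+OXP (adjusted p = 0.000118) and by 0.87 ± 0.128 in OXP (adjusted p = 0.000112). Kif2c, which takes microtubules apart at centromeres so that wrong attachments can be corrected, had 4.12, 4.17 and 4.28 in STS+OXP, 3.81, 4.27 and 4.07 in OXP, 5.86, 5.70 and 5.39 in STS and 5.85, 5.54 and 5.67 in CTR. Its fold change was −1.50 ± 0.132 in STS+OXP (adjusted p = 9.84e-07) and −1.64 ± 0.132 in OXP (adjusted p = 4.21e-07), with no overlap between arrays with and without OXP.

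Kif20a, Kif20b, Kif23 and Kif14 act late in mitosis, at the central spindle and midbody. Kif20a, which brings the Aurora B complex to the central spindle, had signals of 5.37, 5.09 and 5.24 in STS+OXP, 4.54, 5.25 and 4.23 in OXP, 7.39, 7.27 and 7.14 in STS and 6.97, 7.28 and 7.18 in CTR. Kif20b, needed for completing cell division, had 4.59, 4.15 and 4.26 in STS+OXP, 4.10, 5.01 and 3.63 in OXP, 6.50, 6.50 and 6.43 in STS and 6.36, 6.56 and 6.43 in CTR. Both were lower on every array with OXP, and the OXP arrays were the most scattered group for both (SD 0.524 for Kif20a and 0.70 for Kif20b), with OXP 2 the highest of them and OXP 3 the lowest, at background for Kif20b. Kif20a fell by 1.91 ± 0.193 in STS+OXP (adjusted p = 3.62e-06) and by 2.47 ± 0.193 in OXP (adjusted p = 3.24e-07) against CTR, and Kif20b fell by 2.12 ± 0.245 (adjusted p = 1.22e-05) and by 2.20 ± 0.245 (adjusted p = 8.34e-06). The size for Kif20b depended on the probe set. Its other set, the one left when sets that can bind several transcripts were dropped, was at background on all 12 arrays and gave −0.28 in STS+OXP and in OXP, both still called. With OXP 3 as the single OXP array the Kif20b difference was −2.82, and with OXP 2 as the single one it was −1.44.

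Kif23, a motor of the centralspindlin complex, had no usable signal in the probe set that the rule selected, with 3.15, 3.27 and 3.18 in STS+OXP, 3.39, 3.08 and 3.17 in OXP, 3.18, 3.08 and 3.24 in STS and 3.22, 3.11 and 3.33 in CTR. Its other probe set, with a slightly lower mean, had 2.56, 2.33 and 2.52 in STS+OXP, 2.57, 2.69 and 2.43 in OXP, 3.37, 3.62 and 3.45 in STS and 3.08, 3.86 and 4.03 in CTR. That set was above background on 4 arrays and lay lower on every array with OXP than on any array without it. It was looked at after the values were seen and was not tested. Kif14, which works with citron kinase at the midbody, and Kif2b, a relative of Kif2c, stayed at background.

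**Figure D1:**
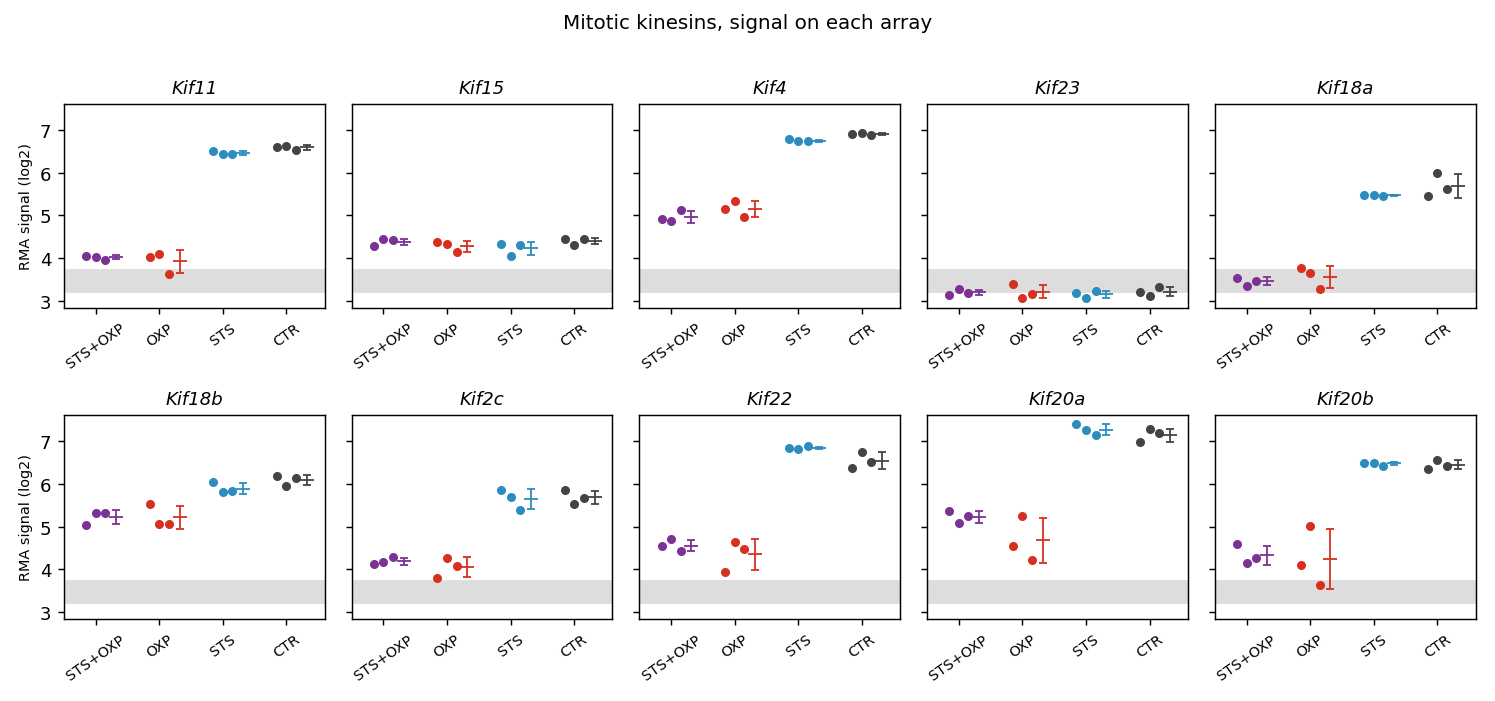
Log2 signal of 10 mitotic kinesins on each of the 12 arrays, by group (points, replicates 1 to 3 from left to right; bars, mean ± SD of 3 arrays); the grey band spans the background of the arrays, 3.21 to 3.72. For 8 genes the STS+OXP and OXP arrays lie below the STS and CTR arrays, while Kif15 does not split and Kif23 is at background.

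The 8 falls were also called in each fit that left out 1 of the 12 arrays, with OXP 1 and 2 or OXP 1 and 3 left out together, and with array medians or cyclic loess as the scaling. After adjustment the methods' unpaired test called 4 of the 8 in OXP against CTR, losing Kif18b, Kif20a, Kif20b and Kif4. Within starved cells the same 8 fell when STS+OXP was set against STS, by between 0.66 for Kif18b and 2.43 for Kif11 (background 11.2% lower and 10.8% higher). The interaction, which is the STS effect with OXP minus that without it, was called for 0 of the 12 by limma, with 0 at unadjusted p under 0.05, and for 8.29% of all genes.

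Promoter sequences are shown for a few members because 8 of the 12 mitotic kinesins fell. The windows are those of RefSeq for GRCm38.p6, 250 bases before and 50 after each annotated start, and 31 of the 37 members had at least 1. Each was searched on both strands for the core of the cell cycle genes homology region (CHR), TTTGAA, a site through which the DREAM complex is known to hold down many mitotic genes, and for the CCAAT box, CCAAT, bound by NF-Y. The motifs do not overlap in their letters. The CHR letters were present in 9 of 11 mitotic, 1 of 11 transport and 2 of 9 other kinesins with a window, and in 20.2% of the 27025 genes with a window. CCAAT was present in 7 of 11 mitotic, 3 of 11 transport and 4 of 9 other members, and in 41.1% of all genes. Kif18a, which fell, had neither, and Kif15, which was above background and not called, had the CHR letters. Kif14 and Kif23 also had them and were not called, but their selected probe sets were above background on 0 and 1 arrays. The other Kif23 probe set lay lower on the arrays with OXP and was not tested. The 120 bases before the start are given for 4 mitotic members with the CHR letters there, of which Kif15 was not called, and for the transport members Kif3b and Kif3c without them. Capitals mark the motif letters, and TTCAAA and ATTGG are the motifs read from the opposite strand.
Kif11, chr19:37376262-37376381, plus strand: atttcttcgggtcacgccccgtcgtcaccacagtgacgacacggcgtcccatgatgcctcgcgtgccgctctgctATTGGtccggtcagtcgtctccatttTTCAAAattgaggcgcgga
Kif22, chr7:127042421-127042540, minus strand: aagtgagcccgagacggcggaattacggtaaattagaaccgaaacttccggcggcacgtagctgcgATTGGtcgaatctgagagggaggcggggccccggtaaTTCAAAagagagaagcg
Kif2c, chr4:117178773-117178892, minus strand: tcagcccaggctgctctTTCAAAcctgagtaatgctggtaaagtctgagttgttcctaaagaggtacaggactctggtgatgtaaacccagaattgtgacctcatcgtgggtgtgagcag
Kif15, chr9:122950961-122951080, plus strand: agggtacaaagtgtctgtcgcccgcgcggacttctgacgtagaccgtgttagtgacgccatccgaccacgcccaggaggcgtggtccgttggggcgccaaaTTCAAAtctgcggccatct
Kif3b, chr2:153291296-153291415, plus strand: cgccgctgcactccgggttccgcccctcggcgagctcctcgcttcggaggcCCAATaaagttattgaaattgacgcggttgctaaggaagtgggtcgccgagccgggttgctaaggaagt
Kif3c, chr12:3365012-3365131, plus strand: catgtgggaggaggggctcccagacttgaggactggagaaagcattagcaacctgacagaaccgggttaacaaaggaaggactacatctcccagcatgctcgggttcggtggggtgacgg
In Kif11 the CHR letters began 19 bases before the start and the CCAAT letters 45 before it. In Kif22 they began 17 and 54 bases before the start, with a further match of each kind farther upstream, and in Kif15 the CHR letters again began 19 bases before. A match in a window is a description of letters and not of binding.

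**Figure D2:**
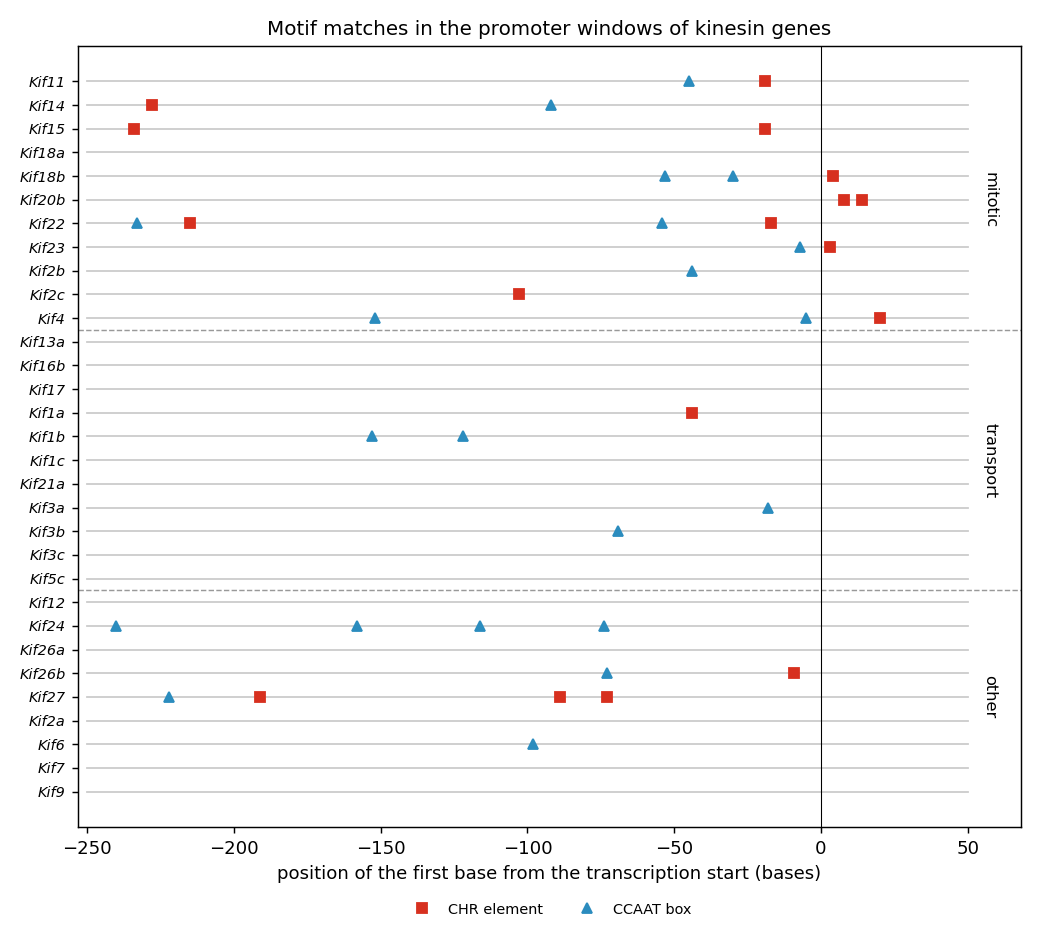
Position of CHR letters (squares) and CCAAT letters (triangles) on either strand in the first promoter window of each of the 31 kinesins with a window, in bases from the transcription start. CHR letters stand in 9 of 11 mitotic windows and in 1 of 11 transport windows, that of Kif1a.

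The transport kinesins showed small changes in both directions. In STS+OXP 2 of the 15 were higher and 2 lower than in CTR (median 0.06), in OXP 3 were higher and 1 lower (median −0.04), and in STS 1 was higher and 1 lower (median 0.04). These shares are near or below those of all genes in each direction. Where all 8 called mitotic kinesins changed by at least 0.86 in STS+OXP, the called transport kinesins changed by at most 0.63.

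Kif5b, the conventional kinesin of most tissues, had signals of 8.16, 7.95 and 7.99 in STS+OXP, 7.13, 8.15 and 8.04 in OXP, 8.04, 8.03 and 8.16 in STS and 7.99, 8.01 and 7.94 in CTR. Only OXP 1 departed from the rest, and it was low in 2 further Kif5b probe sets as well, at 6.39 and 4.45. In the remaining sets it was the highest OXP array, at 8.02 and 4.57, so its departure depended on the probe set. Kif5b was not called, with 0.06 ± 0.193 in STS+OXP (95% confidence interval −0.36 to 0.47), −0.21 ± 0.193 in OXP and 0.09 ± 0.193 in STS against CTR. The OXP difference was 0.18 with OXP 2 as the single OXP array and 0.06 with OXP 3. Kif5a and Kif5c, the neuronal conventional kinesins, were close to background, at means of 3.58 and 3.51.

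Kif1b, a carrier of mitochondria and synaptic vesicle precursors, had signals of 7.35, 7.25 and 7.28 in STS+OXP, 7.48, 7.36 and 7.35 in OXP, 7.09, 6.88 and 7.0 in STS and 6.67, 6.81 and 6.66 in CTR. The groups lay in separate steps, CTR lowest, STS next and both groups with OXP above them. Kif1b rose by 0.58 ± 0.0767 in STS+OXP (adjusted p = 4.40e-05), by 0.68 ± 0.0767 in OXP (adjusted p = 9.44e-06) and by 0.27 ± 0.0767 in STS (adjusted p = 0.0254). The STS call was lost without CTR 1 (adjusted p = 0.0917), CTR 3 (0.0946), STS 1 (0.115) or STS 3 (0.0822). The other 4 Kif1b probe sets differed from CTR by −0.18 to 0.54 in OXP, so the size and direction of the difference depended on the probe set.

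Kif3a and Kif3b are motors of the complex that builds cilia and carries cargo with the adaptor Kifap3, and Kif3c is their close relative. Kif3a had signals of 7.39, 7.34 and 7.38 in STS+OXP, 7.54, 7.36 and 7.33 in OXP, 6.76, 6.70 and 6.58 in STS and 7.28, 7.22 and 7.12 in CTR. It was the kinesin called lower in STS against CTR, by 0.52 ± 0.0787 (adjusted p = 0.000415), and no STS array reached any other array. Against CTR it stood at 0.16 ± 0.0787 in STS+OXP and 0.21 ± 0.0787 in OXP, neither called. The other 3 Kif3a probe sets gave −0.38, 0.20 and −0.18 in STS, and the mean of all 4 gave −0.22 (adjusted p = 0.0533). Kif3c had 5.73, 5.99 and 6.08 in STS+OXP, 5.74, 5.70 and 5.81 in OXP, 5.66, 5.53 and 5.64 in STS and 5.38, 5.44 and 5.51 in CTR. It rose by 0.49 ± 0.0886 in STS+OXP (adjusted p = 0.000624) and by 0.31 ± 0.0886 in OXP (adjusted p = 0.0166). The OXP call was lost without CTR 1 (adjusted p = 0.0647) or OXP 3 (0.0549), with OXP 1 and 3 left out together (0.26, adjusted p = 0.148), with cyclic loess (0.0573) and with array weights (0.0532). Kif3b was not called, at 0.19 ± 0.10 in STS+OXP and 0.10 ± 0.10 in OXP.

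Kif21a, a motor that also slows microtubule growth, had 6.51, 5.70 and 6.26 in STS+OXP, 6.24, 6.38 and 6.98 in OXP, 5.99, 5.75 and 5.95 in STS and 5.93, 5.87 and 5.77 in CTR. It rose by 0.68 ± 0.198 in OXP (adjusted p = 0.0172), a call lost without OXP 3 (0.45, adjusted p = 0.0766) or CTR 3 (0.64, adjusted p = 0.0609). The call was also lost with OXP 1 and 3 left out together, where the rise was 0.52 on a single OXP array. With OXP 3 as the single one the rise was 1.12. Its second bright probe set differed by 1.19, with 7.10, 6.02 and 6.82 in OXP against 5.21, 5.72 and 5.44 in CTR. The highest of these was on OXP 1, the array with the large Gapdh gap. In STS+OXP it stood at 0.30 ± 0.198 above CTR and overlapped it, called only without STS+OXP 2 (0.53, adjusted p = 0.0427) or with array weights. Kif21b, its close relative, was not called, at −0.25 ± 0.107 in STS+OXP, −0.23 ± 0.107 in OXP and −0.28 ± 0.107 in STS.

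Kif13a and Kif16b, carriers of endosomes, were the transport members on the lower side. Kif13a had 6.26, 6.16 and 6.09 in STS+OXP, 6.88, 6.39 and 6.48 in OXP, 6.74, 6.59 and 6.58 in STS and 6.55, 6.93 and 6.59 in CTR. The STS+OXP arrays were below all others, and Kif13a fell by 0.52 ± 0.128 in STS+OXP (adjusted p = 0.00627), while in OXP it stood at −0.11 ± 0.128 (adjusted p = 0.613). The dimmer Kif13a sets did not show that contrast, but they were above background on only 4 and 0 of the 12 arrays. They gave −0.02 and −0.32 in STS+OXP and −0.16 and −0.39 in OXP. With the average of all probe sets limma called Kif13a lower in OXP (−0.22, adjusted p = 0.0334). Kif16b had 5.05, 4.81 and 4.58 in STS+OXP, 5.11, 4.92 and 4.66 in OXP, 5.86, 5.56 and 5.86 in STS and 4.96, 5.74 and 5.63 in CTR. It fell by 0.63 ± 0.187 in STS+OXP (adjusted p = 0.0193) and by 0.55 ± 0.187 in OXP (adjusted p = 0.0402), with CTR 1 inside the range of the arrays with OXP. The STS+OXP call was lost without CTR 2 (adjusted p = 0.0945), CTR 3 (0.0866), STS+OXP 2 (0.0517) or STS+OXP 3 (0.0945). The OXP call was lost without CTR 2 (0.167), CTR 3 (0.152), STS 1 (0.0532), STS 3 (0.0528), OXP 2 (0.0676), OXP 3 (0.146) or STS+OXP 2 (0.0543), with OXP 1 and 3 left out together (−0.53, adjusted p = 0.132), with specific probe sets only (−0.36, adjusted p = 0.0741) and with only the groups compared (0.101). Kif13b, also a vesicle carrier, was not called, at 0.23 ± 0.0924 in STS+OXP and 0.24 ± 0.0924 in OXP, and neither was Kif17, a motor of cilia and dendrites, at 0.04 ± 0.0668 and −0.04 ± 0.0668.

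Among the other kinesins, Kif2a and Kif7 were above background. Kif2a had 6.44, 6.47 and 6.46 in STS+OXP, 6.77, 6.59 and 6.53 in OXP, 7.08, 6.90 and 6.95 in STS and 6.97, 7.21 and 7.05 in CTR, and all arrays with OXP were below all without it. It fell by 0.62 ± 0.0863 in STS+OXP (adjusted p = 6.83e-05) and by 0.45 ± 0.0863 in OXP (adjusted p = 0.00103). In STS it stood at −0.10 ± 0.0863 and was not called. Of its probe sets, 3 of the 4 others also lay lower, by 0.41 to 0.76 in OXP. In STS those 3 sets gave −0.29, −0.69 and −0.66, the last from a set above background on 3 arrays. Their STS and OXP arrays overlapped, so the split between arrays with and without OXP depended on the probe set. Kif7, which organizes the tip of the cilium for Hedgehog signalling, had 6.05, 6.07 and 6.04 in STS+OXP, 6.04, 5.80 and 5.84 in OXP, 5.77, 5.65 and 5.82 in STS and 5.81, 5.83 and 5.87 in CTR. Its rise of 0.22 ± 0.0763 in STS+OXP was close to the threshold (adjusted p = 0.0447) and was lost on leaving out any one of the CTR or STS+OXP arrays, STS 1 or STS 3 (adjusted p from 0.0533 to 0.113), and with median centring (0.0518), cyclic loess (0.0971), a trended, robust fit (0.124) or specific probe sets only, which put it at the threshold.

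**Figure D3:**
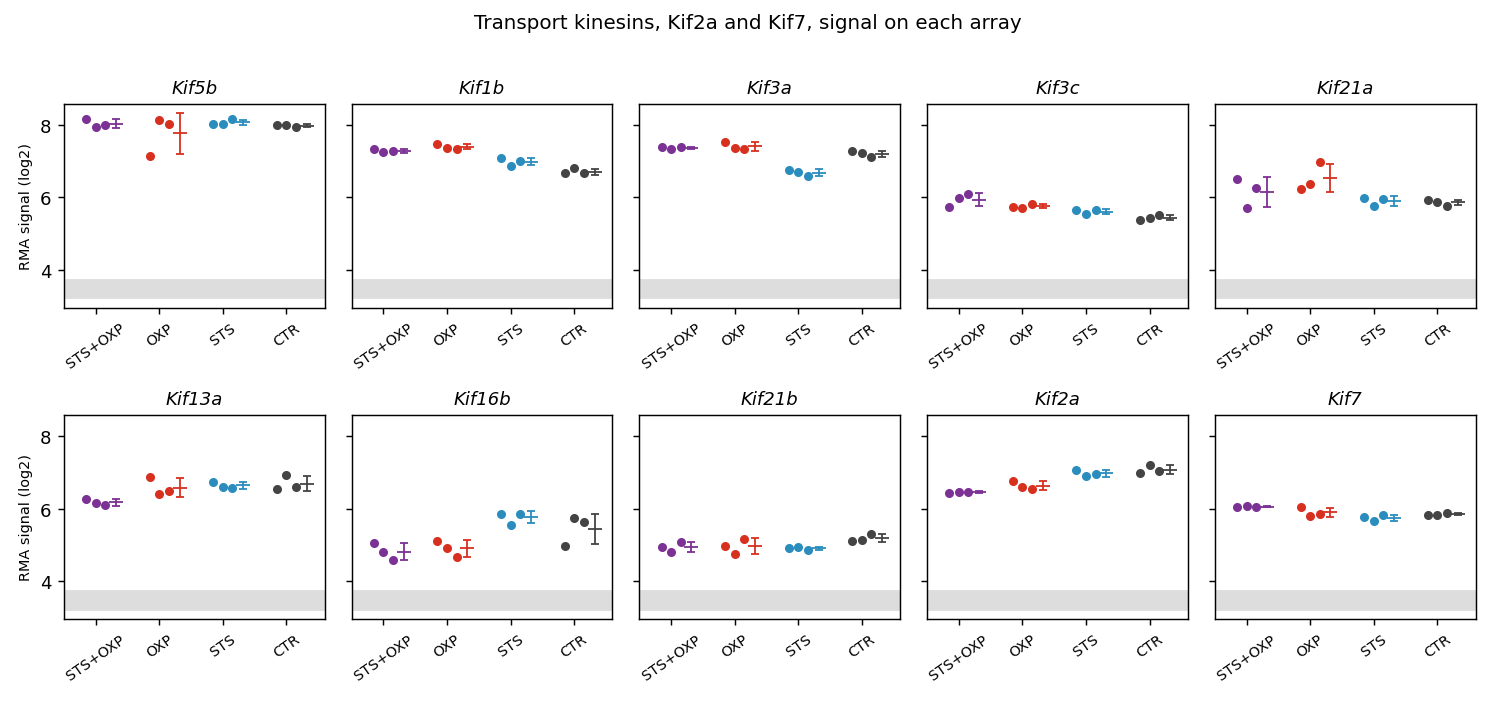
Log2 signal of 8 transport kinesins, Kif2a and Kif7 on each of the 12 arrays, by group (points, replicates 1 to 3 from left to right; bars, mean ± SD of 3 arrays); the grey band spans the background of the arrays. Kif1b is higher in the groups with OXP and Kif2a lower, Kif3a is lower in STS, and OXP 1 stands apart for Kif5b.

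**Figure D4:**
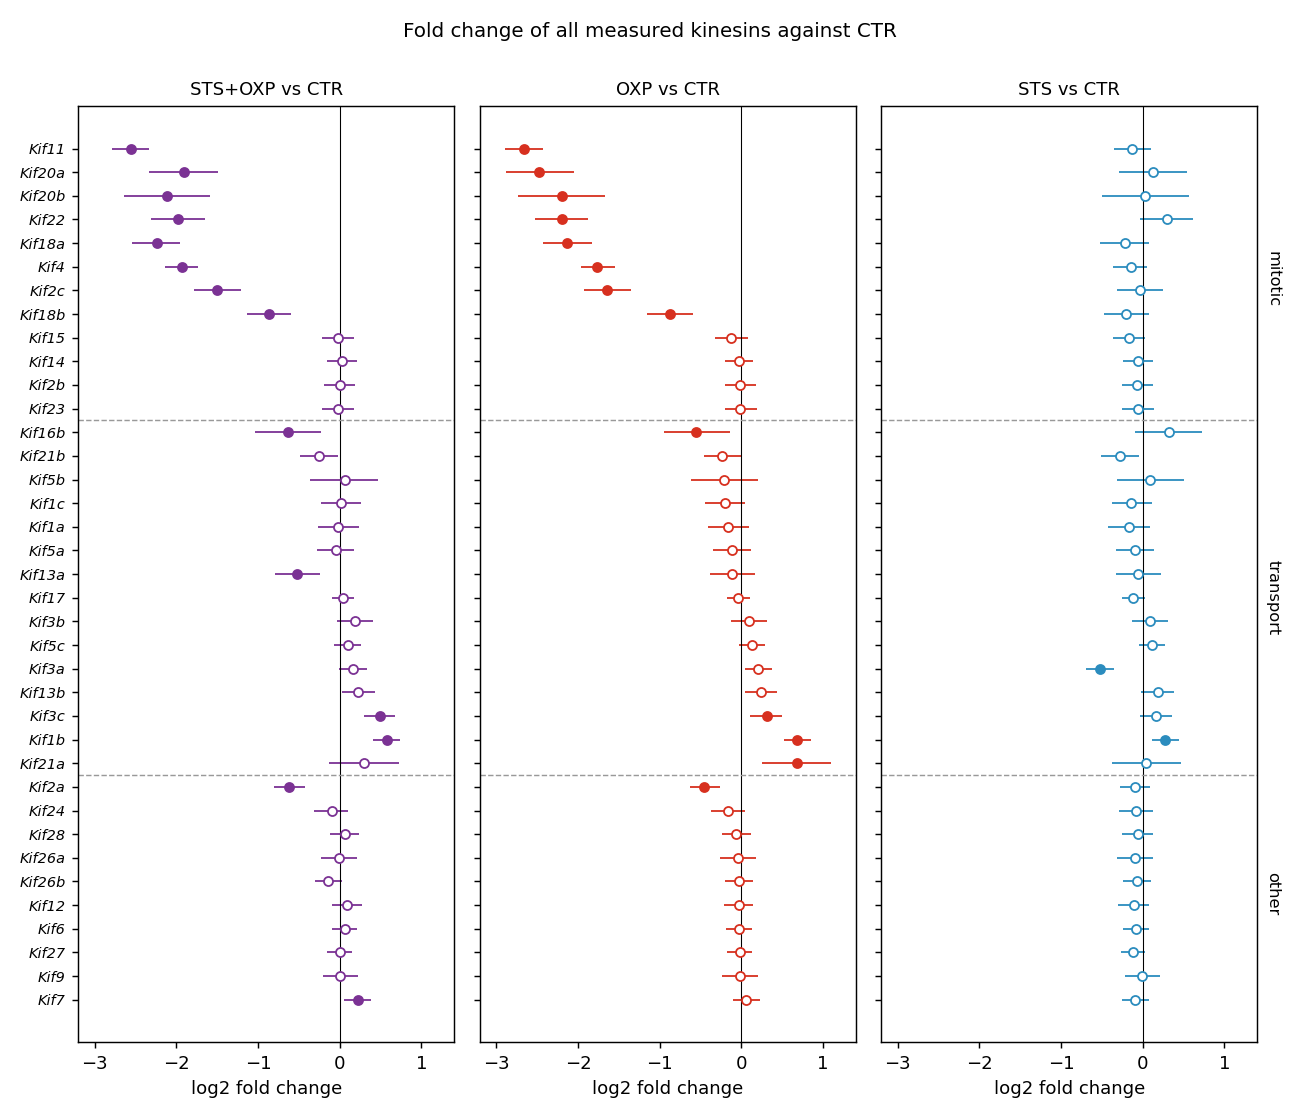
Log2 fold change against CTR of all 37 kinesins in STS+OXP, OXP and STS, ordered within each class by the OXP value; bars are 95% confidence intervals and filled points are called at an adjusted p under 0.05. In STS+OXP and OXP 8 mitotic members lie at −0.86 or below, and in STS the called members are Kif1b and Kif3a.

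Over the whole family, 14 of 37 were called in STS+OXP against CTR (3 higher, 11 lower), where 30.6% of all genes were called in either direction. In OXP 13 were called (3 higher, 10 lower) beside 31.4% of all genes, and in STS 2 beside 16.5%. With STS+OXP set against STS, 15 were called, 4 higher and 11 lower, beside 22.0% of all genes. The 11 were the 8 mitotic members, Kif16b (−0.95 ± 0.187), Kif2a (−0.52 ± 0.0863) and Kif13a (−0.46 ± 0.128). The 4 were Kif3a (0.69 ± 0.0787), Kif3c (0.33 ± 0.0886), Kif1b (0.30 ± 0.0767) and Kif7 (0.30 ± 0.0763), of which the last 3 were no longer called without STS 2 (adjusted p = 0.0750 for Kif3c, 0.0597 for Kif1b and 0.0553 for Kif7). Kif3c was also lost without STS+OXP 2 (0.0656) or STS+OXP 3 (0.0876), and Kif13a without STS 1 (0.0794), STS+OXP 2 (0.0560) or STS+OXP 3 (0.0730). With the average of all probe sets Kif1b stood at 0.09 (adjusted p = 0.480) and Kif13a at −0.18 (adjusted p = 0.10).

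Starvation on top of OXP left the kinesins without a call. With STS+OXP set against OXP, limma called 0 of 37, and 2 of all 17097 genes (0.0117%). Kif20a (0.56 ± 0.193, unadjusted p = 0.0128, adjusted p = 0.282) and Kif13a (−0.41 ± 0.128, unadjusted p = 0.00682, adjusted p = 0.257) had an unadjusted p under 0.05, and the methods' unpaired test found 0 of 37 at unadjusted p under 0.05 as well as after adjustment. Of all genes the unpaired test put 514 under that unadjusted threshold. The lack of limma calls rested on OXP 2. Without that array 1166 of all genes were called, Kif20a was 0.85 higher in STS+OXP (adjusted p = 0.00117) and Kif13a 0.51 lower (adjusted p = 0.0373). The OXP arrays left in that fit were OXP 1 and OXP 3, with Kif13a at 6.88 and 6.48. Of these, OXP 1 is the array with the large Gapdh gap. With OXP 3 as the single OXP array Kif20a stood at 1.00 and Kif13a at −0.31. With OXP 2 as the single one Kif20a stood at −0.02 and Kif13a at −0.22. The 95% confidence intervals with all arrays ran from −0.13 to 0.33 for Kif11 and from −0.44 to 0.61 for Kif20b.

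Markers of other cell types moved in part with the groups. Of 6 macrophage markers 1 was higher in STS+OXP (Cd14, 0.72) and 2 in OXP (Cd14, 1.17, and Cd68, 1.47), with list means of 3.86 to 3.90 on STS+OXP, 3.84 to 4.40 on OXP, 3.72 to 3.81 on STS and 3.71 to 3.88 on CTR arrays. Cd68 was above background on only 2 of the 12 arrays. Of 5 fibroblast markers 1 was higher in STS+OXP and 3 in STS, among them Pdgfrb (1.17 in STS). Of 4 neuronal markers Tubb3 was lower in STS+OXP (−1.46), OXP (−1.42) and STS (−0.91). Of 4 endothelial markers Kdr was lower in STS+OXP (−0.34), and of 4 measured lymphocyte markers Cd79a was lower in STS (−0.48). The epithelial Krt18, at background on all 12 arrays, was also called lower in STS (−0.21). Of all genes 16.4% were higher and 14.2% lower in STS+OXP, 17.5% and 13.9% in OXP and 9.75% and 6.74% in STS. The part of these markers in the kinesin results was not tested.

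Motors with other symbols and the partners of the mitotic kinesins gave the setting. Cenpe, the kinetochore kinesin, fell by 1.92 ± 0.121 in STS+OXP and by 2.11 ± 0.121 in OXP. Kifc3, a minus-end motor of cell junctions, fell by 0.80 ± 0.119 and 0.67 ± 0.119, and Stard9, a centrosome kinesin, rose by 0.82 ± 0.140 and 1.04 ± 0.140. Of 26 spindle proteins that work with mitotic kinesins, 20 were lower and 5 higher in STS+OXP (median −1.77) and 20 lower and 4 higher in OXP (median −1.88). Of all genes 14.2% were lower and 16.4% higher in STS+OXP, and 13.9% lower and 17.5% higher in OXP. Aurkb, the Aurora kinase that Kif20a carries, fell by 3.27 ± 0.149 in STS+OXP and by 2.97 ± 0.149 in OXP, with Bub1 at −2.97 and −2.62 and Birc5 at −2.82 and −2.49. Psrc1, a spindle protein that helps recruit Kif2a, went the other way, rising by 2.02 ± 0.0811 and 1.97 ± 0.0811. In STS, 2 of the 26 were lower and 4 higher (median 0.01), where 6.74% of all genes were lower and 9.75% higher.

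The partners of transport motors were called in part. Of 16 measured kinesin subunits and adaptors, 7 were higher, 1 lower and 8 not called in STS+OXP against CTR (median 0.14). Against CTR, 6 were higher and 1 lower in OXP (median 0.19), and 3 were higher in STS. Of all genes 16.4% were higher and 14.2% lower in STS+OXP, 17.5% and 13.9% in OXP and 9.75% and 6.74% in STS. With STS+OXP set against STS, 2 of the 16 were higher and 2 lower, near the 10.8% and 11.2% of all genes. Kifap3, the subunit that joins Kif3a and Kif3b to cargo, rose by 0.79 ± 0.0985 in STS+OXP, 0.95 ± 0.0985 in OXP and 0.70 ± 0.0985 in STS, where Kif3a fell. Kidins220, a membrane scaffold that kinesins carry, rose by 0.82, 1.15 and 0.47, and Hap1, which links Kif5 motors to cargo, by 0.68, 0.57 and 1.31. Klc4, a kinesin light chain, rose by 0.76 in STS+OXP and 0.54 in OXP. Of 24 subunits and adaptors of dynein and dynactin, the motor that walks toward minus ends, 11 were higher and 2 lower in STS+OXP (median 0.22) and 12 higher and 2 lower in OXP (median 0.21). These counts stand beside the shares of all genes given above for the same comparisons. Examples in STS+OXP were Dync1h1, the dynein heavy chain (0.78 ± 0.0765), and Dynlt3, a dynein light chain (0.93 ± 0.0967), against Nde1, a dynein regulator of mitosis (−0.96 ± 0.110).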

How the data were processed

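The authors deposited log2 values for 45141 probe sets on 12 Affymetrix arrays, and the submitters' processing notes name RMA and R 3.02. RMA subtracts background, equalizes the distributions of the arrays and summarises the probes of each set, which can hide a shift common to all genes and shrinks differences near background. The genome build is not given in the sources used here. Precision is limited by the number of arrays, which hold no counts.

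Arrays were grouped by their sample titles. Probe sets with several symbols (551) or none (15588) were left out, and each of 17097 genes took its single-symbol probe set with the highest mean. The 37 members had 81 such sets, and all 37 symbols matched RefSeq. All arrays entered a single limma fit with a mean for each of the 4 groups (limma 3.58.1, R 4.3.3, with 8 residual and 5.05 prior degrees of freedom). It was tested on simulated data, and two-sided p-values were adjusted over all genes. Comparisons against CTR share the CTR arrays.

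Values per array are given for mitotic members above background, the 6 brightest transport members, the brightest other members and called members, with up to 4 called members of each partner list. Kif23 was added after its values were seen. The members and lists were chosen with earlier results of these data known, and Kif28 was added to the other kinesins later. The alternatives were other scalings, probe set rules, moderation, weights, a replicate block, each array left out and the methods' unpaired test. Leaving out OXP arrays 1 and 2, or 1 and 3, together was chosen after seeing the data, and the lone OXP array is then assumed to vary like the other groups.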

Additional observations from a re-analysis of the deposited data

Results flagged for a closer look

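For 2 transport kinesins the effect of STS differed between cells with and without OXP by the interaction test, in which limma's p is adjusted over all genes. They make up 5.41% of the 37 kinesins, a share below the 8.29% of all genes called. Kif3a was 0.52 lower in STS than in CTR but 0.04 lower in STS+OXP than in OXP, a difference of 0.48 (adjusted p = 0.0169). Without STS 3 it was 0.43 (adjusted p = 0.0535), and with the average of all 4 Kif3a probe sets 0.31 (adjusted p = 0.0895). Kif1b was 0.27 higher in STS than in CTR but 0.10 lower in STS+OXP than in OXP, a difference of −0.38 (adjusted p = 0.0485), close to the threshold. It was no longer called on leaving out CTR 1, CTR 3, STS 1, STS 3, OXP 1 or any 1 array of STS+OXP, with adjusted p between 0.0622 and 0.125, and with the average of its 5 probe sets it was −0.16 (adjusted p = 0.413).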

How the results depend on the processing

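No called kinesin changed sign under any alternative. Of 1415 values of single members under alternatives, 1310 stayed on their side of the threshold, 91 lost the call and 14 gained it. Median centring and cyclic loess moved the median of all genes by less than 0.1. Kif18a was at background on some arrays with OXP, and Kif11 and Kif20b on OXP 3, so their falls may be understated there, and 14 dim members allow no statement. After Benjamini-Hochberg adjustment the methods' unpaired test called 5 kinesins in OXP and 1 in STS against CTR, and 4 mitotic kinesins in OXP, with 1 transport kinesin higher in STS+OXP, 1 higher in OXP and 0 higher in STS, and 0 lower in STS+OXP or OXP. At unadjusted p it gave 7 kinesins in STS, with 2 mitotic lower, 2 transport higher and 3 lower, 1 transport lower in STS+OXP and 0 in OXP. Of all 17097 genes the unpaired test called 3165 in STS+OXP, 1034 in OXP and 715 in STS after adjustment. At unadjusted p under 0.05 the numbers were 5710, 4279 and 4090. For STS against CTR, 4 kinesins were called with array weights, with only the groups compared and with either pair of OXP arrays left out, in each case with 2 transport kinesins lower, and 0 were lower with averaged probe sets. Array weights also put 5 transport kinesins higher in STS+OXP, and genes above the median signal 5 higher in OXP. With OXP 1 and 2 left out together 3 kinesins differed between STS+OXP and OXP and 4 in the interaction, and with OXP 1 and 3 left out 1 transport kinesin was higher in OXP. For the interaction 1 kinesin was called with cyclic loess, specific probe sets, trend and robust moderation, array weights or the replicate block, and 0 with averaged probe sets. For OXP against CTR 2 transport kinesins were lower with averaged probe sets, and 0 with specific probe sets, the replicate block or only the groups compared. Among all genes, 4400 were called in STS with array weights and 3782 with only the groups compared. Array weights gave 6417 in STS+OXP, and 4938 of the 8548 genes above the median were called in OXP. The interaction gave 1153 with specific probe sets, 1208 with averaged ones and 1728 with array weights. In OXP 5145 were called with averaged and 4363 with specific probe sets. The cause of the shifts between settings was not tested.

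With each array left out in turn, between 11 and 14 kinesins were called in OXP, 12 and 14 in STS+OXP and 1 and 3 in STS against CTR, 12 and 16 for STS+OXP against STS, 0 and 2 for STS+OXP against OXP and 0 and 3 for the interaction. Of all 17097 genes, those fits called 4666 to 5496 in OXP, 4576 to 5860 in STS+OXP and 1937 to 3527 in STS against CTR. They called 2927 to 4526 for STS+OXP against STS, 0 to 1166 for STS+OXP against OXP and 955 to 1756 for the interaction. Transport kinesins numbered 2 to 4 higher and 0 to 1 lower in OXP, 2 to 3 higher and 1 to 2 lower in STS+OXP, and 0 to 1 higher and 1 to 2 lower in STS. Replicate numbers were shared across groups, but deviations of same-numbered arrays correlated between −0.199 and 0.102 over 18 pairs, with 1 above 0.1, so the numbers were taken as names only. With the replicate block 13 kinesins were called in STS+OXP, 13 in OXP and 2 in STS against CTR, beside 5110, 5251 and 2640 of all 17097 genes. The block ended the calls of Kif7 in STS+OXP (adjusted p = 0.0555), Kif16b in OXP (0.0666) and Kif1b in the interaction (0.0655), and Kif3a in OXP passed the threshold with it (0.0421).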
